A study of Mus musculus with 54 samples.

Results

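The genes described here are 10 mouse genes of proteins that move phospholipids across membranes, among 21631 protein-coding genes of the assembly mm10. They are 7 P4-ATPase flippases, Atp8a1, Atp8a2, Atp8b1, Atp8b2, Atp8b4, Atp11a and Atp11b, and 3 phospholipid scramblases, Plscr1, Plscr2 and Plscr4. The list was chosen by loop counts in these same files, in which Atp8b1 and Plscr4 had unequal numbers of condition-specific loops at their ends, so the counts below are a description and carry no test. Loops were given to a gene where either anchor lay within 50 kb of the gene body, and those with an anchor within 5 kb of either end of the gene are called loops at a gene end.

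The resistant cells were mouse pancreatic cancer cells with the genotype label Gemcitabine resistant, selected in rising concentrations of gemcitabine and treated with gemcitabine in DMSO, and they were set against parental cells labelled WT and treated with DMSO. Both are labelled as cells of a primary tumor of the pancreas, and the labels do not say whether the resistant cells are 1 clone. Hi-C, which joins and sequences DNA ends lying near each other in the nucleus, has 3 samples per condition among 54 samples of the series, and the files hold 1 list of loops and 1 list of domains per condition. The series text calls the Hi-C cells doxorubicin-resistant where the sample labels say gemcitabine, and the labels were followed.

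Resistance and drug exposure went together in every resistant sample and cannot be told apart. Single lists carry no replicate error, so no difference could be tested, and a loop missing from a list may lie below the threshold of the authors' caller. The read depth behind the lists is unknown. The resistant list held 7169 loops and the parental list 6829, drawn on bins of 5 kb, and there were 4196 resistant and 3997 parental domains on bins of 10 kb. Expression was not analysed here, so the labelled cell type was not checked against its markers and nothing is known from these files of how far the genes were transcribed.

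Flippases use ATP to carry phosphatidylserine, phosphatidylethanolamine and related lipids from the outer to the inner leaflet of a membrane, and most need a partner subunit such as Tmem30a. Scramblases let lipids pass in both directions without ATP, and the exposure of phosphatidylserine that follows when flippases stop and scramblases open marks dying cells for engulfment. A chromatin loop is a pair of distant sites that meet more often than their surroundings, often where cohesin is held by CTCF, and a topologically associating domain is a stretch of chromosome that contacts itself more than its neighbours.

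Over the 10 genes, the resistant list held 7 loops within 50 kb and the parental list 12, each loop counted once. Of these, 2 were shared by the lists, meaning that both anchors had a counterpart within 10 kb, which left 5 resistant-only and 10 parental-only loops. In the whole lists, 35.4% of resistant and 37.2% of parental loops were shared, so unshared loops were the larger part of each list. At least 1 loop was called at 4 of the 10 genes in the resistant list (61.5% of all genes) and at 8 of the 10 in the parental list (60.4% of all genes). The members had a median length of 107 kb against 17.3 kb for all genes, and around the longer ones the window takes in more sequence. Atp8b2, Plscr1, Plscr2 and Plscr4 were short, at 22.2 to 36.1 kb. Among the 2427 genes of 100 kb or longer, a class without these short members, 71.4% had a resistant loop and 69.9% a parental loop.

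The counts fell unevenly over the family. Atp8b2, Atp8b1 and Plscr1 had loops in both lists, 3 of 10 genes (47.1% of all genes). Only a resistant loop was called at 1 gene, Atp11a (14.4% of all genes), and only parental loops at 5 genes, Atp8a1, Atp8a2, Atp8b4, Atp11b and Plscr4 (13.3% of all genes). Plscr2 had no loop in either list, as had 25.2% of all genes. The median number of loops per member was 0 in the resistant list and 1 in the parental list, against a median of 1 over all genes in each list. Loops at a gene end were called at 1 member in the resistant list (23.8% of all genes) and at 2 in the parental list (23.3% of all genes), and 7 members had none in either list (66.1% of all genes).

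**Figure D1:**
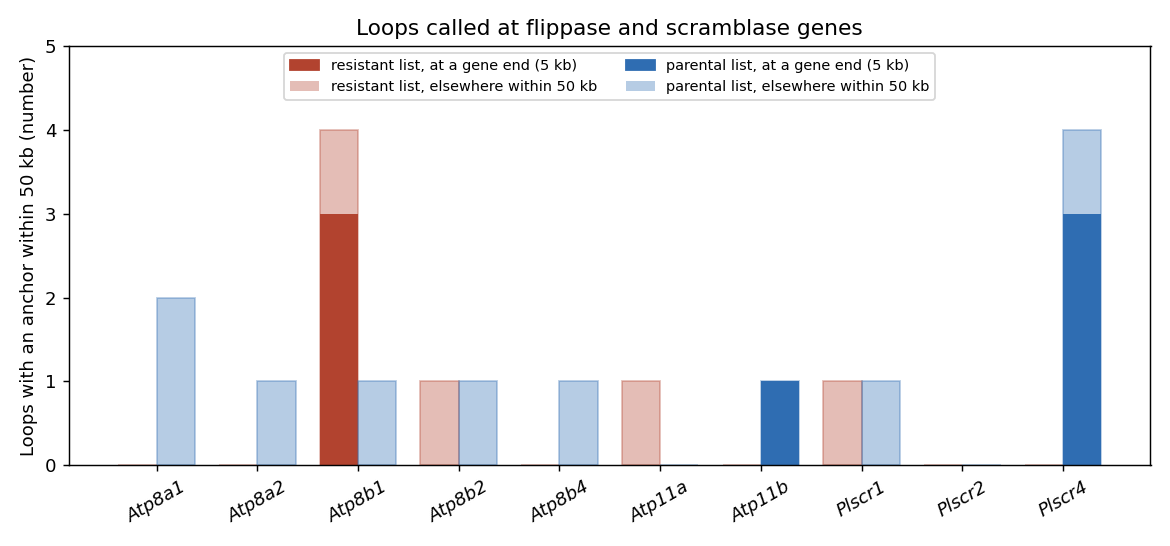
Bars give the number of loops with an anchor within 50 kb of each gene body in the resistant list (red, left) and the parental list (blue, right), with the full-colour part for loops within 5 kb of a gene end. Atp8b1 has 4 resistant loops and 1 parental loop, Plscr4 has none and 4, and Plscr2 has none in either list.

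Atp8b1, the canalicular flippase whose loss causes inherited cholestasis in humans, had the most resistant loops of the family. The gene spans 132.3 kb of chromosome 18 (64528979 to 64661272). The resistant list held 4 loops within 50 kb, 3 of them at the low-coordinate end of the gene, and the parental list held 1 loop, not at a gene end. All 3 gene-end loops left from the same bin, 64525001 to 64530000, which covers that end. In the resistant list 0.403% of anchor bins carried 3 or more loops. Nothing is read from this share, since Atp8b1 was chosen by these same loops. The orientation of Atp8b1 is not in the promoter table used here, so this end is called by position and not as start or end of the transcript.

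The first of the 3 loops reached over 220 kb to an intergenic bin at 64745001 to 64750000, with a p-value of 6.55e-08 from the authors' caller and rank 617 in the resistant list. The second reached over 355 kb to 64880001 to 64885000, within 5 kb of an end of Nedd4l, a ubiquitin ligase of ion channels (p-value 1.14e-06, rank 1425). The third reached over 425 kb to a bin inside Nedd4l at 64950001 to 64955000 (p-value 5.81e-05, rank 3098). All 3 ranked above the middle of the resistant list and were still counted among its 3584 loops of lowest p-value. The bin at Atp8b1 was used by no parental loop within 10 kb, while the 3 far anchors were used by 1, 2 and 1 parental loops.

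These 3 loops belonged to a wider mesh in the resistant list. Within the 770 kb domain that holds Atp8b1 and Nedd4l the resistant list had 9 loops, of which 7 were resistant-only. The parental list had 4, of which 2 were parental-only. Most loops of either whole list were also unmatched, since 35.4% of resistant and 37.2% of parental loops had a match. The strongest of the 9 ran over 200 kb from the bin at 64750001, next to the first far anchor, to the bin at 64950001 (p-value 7.34e-10, within the top 1.76% of its list). Loops from that same intergenic site also reached the end of Nedd4l (125 kb) and a bin inside it (260 kb). The 2 loops found in both lists lay between the end of Nedd4l and bins at 64950001 and 65010001. A parental-only loop, over 240 kb, also left from the intergenic site, at 64755001 (p-value 0.00066). It lay close to the resistant-only loop of 260 kb, whose far bin was at 65010001 against 64995001 here. These far bins were more than 10 kb but less than 20 kb apart. With a limit of 20 kb the pair would count as shared, so the condition-specific counts of this domain depend on the limit. The resistant list thus joined Atp8b1, the intergenic site and Nedd4l. The parental list joined the intergenic site with Nedd4l and had no loop at an end of Atp8b1.

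The domain itself had identical borders in both lists, at 64510000 and 65280000. Its left border lay 19.0 kb from the low end of Atp8b1. This was the only member with a gene end within 20 kb of a border, in either list (19.8% of all genes in the resistant list and 18.8% in the parental list). The separation score of the domain was -0.88 in the resistant and -0.81 in the parental list, where 4.89% and 8.28% of domains had a lower score. Of domains found in both lists, 0.36% gained 5 or more loops in the resistant list, as this one did. At a gene end, 3 resistant-only loops with no parental loop were counted at 10 genes of all (0.0462%). Both counts come from the contrast by which Atp8b1 was chosen, so nothing is read from them.

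**Figure D2:**
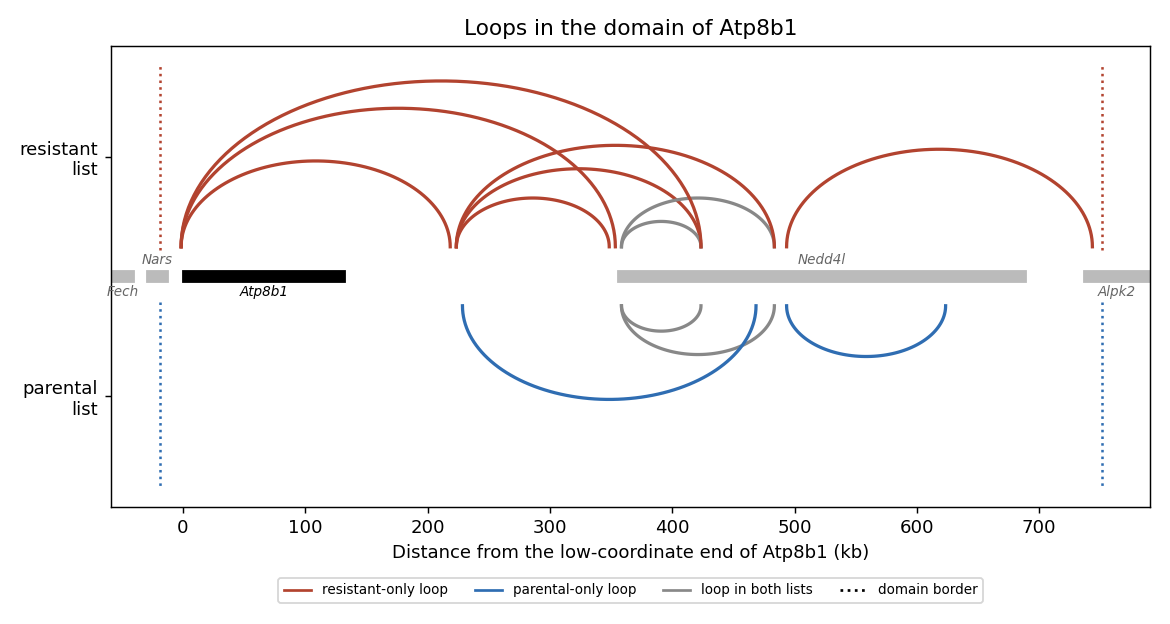
Arcs join the anchors of loops in the domain of Atp8b1, in kb from the low end of the gene, with the resistant list above and the parental list below the genes; arc height follows span and dotted lines are domain borders. The 3 loops from Atp8b1 appear in the resistant list alone, and the 2 grey loops at Nedd4l are in both lists.

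The remaining Atp8b1 loop was found in both lists at the same bins and lay just inside the window. It ran over 705 kb on the other side of the border, from 63770001 to 64480000, and came within 49.0 kb of the gene. Its p-value was 3.35e-05 in the resistant and 5.81e-05 in the parental list, at ranks 2829 and 3068. A parental-only loop near it ended 59.0 kb from the gene and was left out by the window.

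Of the other flippases of the Atp8b group, Atp8b2 had the loop with the lowest p-value of the family in each list. Atp8b2, which in human cells carries phosphatidylcholine, lies on the minus strand of chromosome 3 (89939481 to 89963338). The loop joined bins 25 kb apart in the resistant list (90010001 and 90035001, p-value 5.69e-09, rank 263) and 35 kb apart in the parental list (90005001 and 90040001, p-value 9.69e-09, rank 393). It was counted as found in both lists, since each anchor had moved by 5 kb. Neither anchor was at an end of Atp8b2 or of another protein-coding gene: the nearer anchor lay 46.7 kb from the gene in the resistant and 41.7 kb in the parental list. Atp8b4, a less studied relative on chromosome 2 (126320973 to 126500669), had no resistant loop and 1 parental-only loop, which ended inside the gene, 54.0 kb from its nearer end (span 325 kb, p-value 0.00163, rank 4758).

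Atp8a1, a phosphatidylserine flippase of endosomes and neurons, had no resistant loop within 50 kb and 2 parental-only loops with low p-values. The gene runs over 229.3 kb of chromosome 5 on the minus strand (67618139 to 67847484). The first parental loop joined 67530001 to 67535000 with a bin inside the gene at 67725001 to 67730000 (span 195 kb, p-value 3.18e-08, rank 571). The second joined another bin inside the gene, at 67755001 to 67760000, with 68010001 to 68015000 (span 255 kb, p-value 5.28e-08, rank 667). None of the 4 bins was within 10 kb of an anchor in the resistant list. The parental calls therefore met inside the gene, in bins 25 kb apart, and neither loop spanned the stretch between them.

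The resistant list placed a domain border in that stretch. The border, at 67750000, lay 20 kb beyond the anchor of the first parental loop and 5 kb before the anchor of the second, and the nearest parental border was 360 kb away. Atp8a1 was split by it, with 57.5% of the gene in a resistant domain of 490 kb (67260001 to 67750000), while the whole gene lay in a parental domain of 850 kb (67260001 to 68110000). The border scored -0.22, and 74.0% of resistant domains had a lower score. Lower scores marked the borders that recurred: among the 1049 resistant and 1000 parental domains of lowest score, 90.5% and 91.1% of left borders had a counterpart within 20 kb in the other list, against 63.6% and 73.0% among the 1049 and 999 domains of highest score. In the third of the 4 groups of resistant domains by score, which holds the border in Atp8a1, the share was 74.8%.

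**Figure D3:**
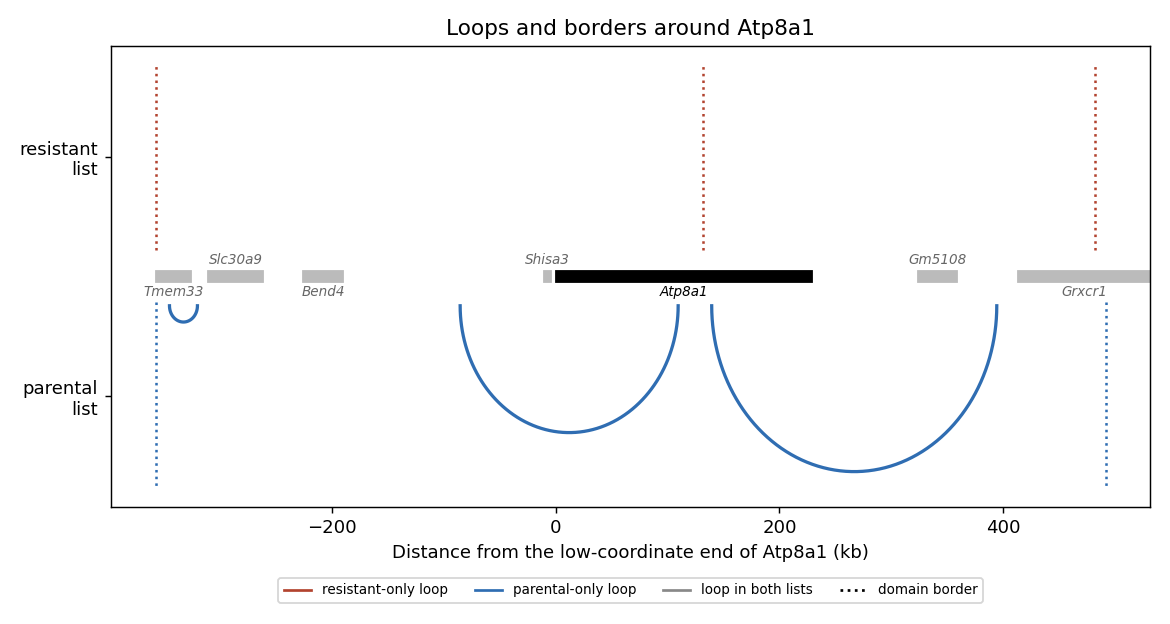
Loops (arcs) and domain borders (dotted lines) around Atp8a1, in kb from the low end of the gene, with the resistant list above and the parental list below. The resistant border inside the gene falls between the inner anchors of the 2 parental-only loops of 195 and 255 kb, and no resistant loop is called in the stretch shown.

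Atp8a2, the phosphatidylserine flippase of photoreceptors and neurons, also had a border inside the gene in the resistant list. It is the longest member, at 439.4 kb on chromosome 14 (59647531 to 60086914). No resistant loop was called within 50 kb, and 1 parental-only loop of 410 kb ran from 59605001 to 60020000 (p-value 2.29e-05, rank 2642). The first bin of this loop ended at the left border of the domain. That left border, at 59610000, was the same in both lists. The right border lay inside the gene in the resistant list, at 60060000, which is 26.9 kb from the high end, and outside it in the parental list, at 60210000. The resistant border was 150 kb from any parental border, and 54.3% of resistant domains had a lower score than its -0.36. Just outside the window, 2 loops found in both lists ended at or near Cdadc1, 52.5 and 87.5 kb from Atp8a2 in the resistant list and 57.5 and 87.5 kb in the parental list.

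A border inside the gene body was thus called for 2 members, Atp8a1 and Atp8a2, in the resistant list (8.28% of all genes) and for none in the parental list (7.91% of all genes). Such a border in the resistant list with none in the parental list was found in 1.91% of all genes. Both genes are over 200 kb long, and long genes hold borders more often: 42.7% of the 990 genes of that length held one in the resistant list and 40.3% in the parental list. Of these long genes, 6.77% held a border in the resistant list and none in the parental list.

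The Atp11 flippases had 1 loop each. Atp11a, which keeps phosphatidylserine on the inner side of the plasma membrane and is cut by caspases, lies on the plus strand of chromosome 8 (12757016 to 12868728). It had 1 resistant-only loop of 105 kb, from 12715001 to a bin inside the gene at 12820001, and no parental loop. This was a weak call, with a p-value of 0.013 and rank 6303 in the resistant list. Atp11b, an endosomal flippase on the plus strand of chromosome 3 (35754044 to 35856276), had no resistant loop within 50 kb and 1 parental-only loop, also a weak call (p-value 0.00608, rank 5561).

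The Atp11b loop is the only loop of the family whose anchor bin covers a promoter of a member in the table used here, which has promoters for 7 of the 10. It ran over 245 kb from 35750001 to 35755000, which holds the start of the gene, to 35995001 to 36000000, within 5 kb of an end of Mccc1, a subunit of a mitochondrial carboxylase of leucine breakdown. A loop found in both lists passed over the gene without touching the window, with its nearer anchor 59.0 kb away in the resistant list (span 275 kb, p-value 0.000195) and 64.0 kb away in the parental list (span 285 kb, p-value 1.23e-05). For their base composition 3 starts of the family are given, from RefSeq promoters of the assembly GRCm38.p6, the assembly named mm10 here. They are that of Atp11b, that of Plscr4, whose start lay 2.37 kb from a parental anchor bin, and that of Plscr1, which lies in the same domain as Plscr4 and had no anchor at its start. Capitals mark GC boxes, GGGCGG on either strand, including overlapping matches.
Atp11b, chr3:35753813-35754112, plus strand: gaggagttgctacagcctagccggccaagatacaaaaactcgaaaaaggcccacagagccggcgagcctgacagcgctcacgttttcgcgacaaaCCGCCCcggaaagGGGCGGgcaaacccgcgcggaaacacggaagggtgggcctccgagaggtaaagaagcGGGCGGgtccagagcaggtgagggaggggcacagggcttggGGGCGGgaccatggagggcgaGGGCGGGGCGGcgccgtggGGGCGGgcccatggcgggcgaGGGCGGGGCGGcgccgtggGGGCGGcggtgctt
Plscr4, chr9:92457128-92457427, plus strand: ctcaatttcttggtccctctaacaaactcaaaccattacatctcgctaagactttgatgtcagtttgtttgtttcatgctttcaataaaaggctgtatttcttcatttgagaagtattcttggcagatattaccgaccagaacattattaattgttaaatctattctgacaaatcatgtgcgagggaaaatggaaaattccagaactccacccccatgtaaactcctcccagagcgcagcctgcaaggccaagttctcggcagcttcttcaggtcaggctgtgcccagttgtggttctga
Plscr1, chr9:92249944-92250243, plus strand: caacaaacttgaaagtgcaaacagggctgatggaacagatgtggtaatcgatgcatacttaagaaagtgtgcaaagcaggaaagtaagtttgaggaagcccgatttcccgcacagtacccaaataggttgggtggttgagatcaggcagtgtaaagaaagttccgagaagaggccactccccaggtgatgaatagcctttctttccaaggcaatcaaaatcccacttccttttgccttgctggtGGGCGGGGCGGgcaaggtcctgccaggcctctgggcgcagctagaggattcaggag

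Each stretch covers 250 bases before and 50 after the start. The Atp11b promoter had a GC content of 70.7%, 33 CpG dinucleotides and 10 GC boxes. The Plscr4 promoter had a GC content of 42.0%, 5 CpG dinucleotides and no GC box. The Plscr1 promoter had a GC content of 50.7%, 7 CpG dinucleotides and 2 overlapping GC boxes. Over all 32851 promoters of the table the median GC content was 52.7% with 7 CpG, and 35.7% held a GC box. The table had 8 promoters of members, of which 6 held a GC box. High GC content was not particular to Atp11b. With no anchor over them in either list, the promoters of Atp11a and Atp8a1 had 76% and 70.3%. Those of Atp8b2 had 69% and 66%, and that of Atp8b4 had 48%, also without an anchor. The forkhead motif TGTTTAC was searched on both strands, since the study is about Foxa1, and was in none of the 8, against 3.65% of all promoters. A core of the CTCF motif was also in none of the 8, against 0.326% of all. No match says only that these letters are not in these windows.

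The 3 scramblase genes lie in 1 domain of chromosome 9, Plscr1 next to Plscr2 and Plscr4 farther along, and there the loop calls leaned the other way from Atp8b1. Plscr1 (92250194 to 92272561), an interferon-induced scramblase, Plscr2 (92275602 to 92297752) and Plscr4 (92457372 to 92493513) shared a domain of 490 kb in the resistant list, from 92130001 to 92620000, and of 500 kb in the parental list, which ended 10 kb farther on. In and just around this domain the resistant list had 1 loop and the parental list had 5. No loop of the 6 was found in both lists. Over all loops 35.4% of the resistant and 37.2% of the parental list had a match.

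Plscr4, a scramblase of the same family, had no resistant loop within 50 kb and 4 parental-only loops, 3 of them at a gene end. The loop with the lowest p-value among the 4 left from a bin at 92495001 to 92500000, 1.49 kb beyond the high end of the gene, and reached over 115 kb to an end of Plod2, a lysyl hydroxylase of collagen (p-value 1.21e-05, rank 2368). A second left from the same bin in the other direction and reached over 350 kb to 92145001 to 92150000 (p-value 0.000354, rank 3956). That far bin lay near the left border of the domain, at 92130000. The third joined 92380001 to 92385000 with a bin 2.37 kb before the start of Plscr4 over 70 kb and was a weak call (p-value 0.00851, rank 5770). The fourth, not at a gene end, ran over 405 kb from 92105001 to a bin at 92510001 and crossed the left border of the domain (p-value 0.00249, rank 5007). It lay 16.5 kb from the gene and was the nearest loop outside the 5 kb limit. Of the 3 loops at an end of Plscr4, 1 was among the 3414 parental loops of lowest p-value, and in none of the 3 did the anchor bin itself hold the gene end. As background, 3 parental-only loops with no resistant loop were counted at 13 genes of all (0.0601%), and 4% of domains found in both lists had 3 or more loops more in the parental list. Nothing is read from these shares, which use the contrast that chose Plscr4.

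Plscr1 had 1 loop in each list, with different partners. The resistant-only loop joined 92220001 to 92225000 with 92380001 to 92385000 over 160 kb and passed over Plscr1 and Plscr2 (p-value 1.03e-05, rank 2289). The parental-only loop joined 92210001 to 92215000, at an end of Plscr5, another member of the scramblase cluster, with the end of Plod2 over 400 kb and passed over all 3 scramblases (p-value 5.55e-07, rank 1258). Both anchors of the resistant loop were within 10 kb of an anchor in the parental list, where each was joined to another site. The low anchor of the parental-only loop was also in use in the resistant list, and its anchor at Plod2 was not. Plscr2 had no loop within its window: the resistant loop of Plscr1 lay 50.6 kb from it and the parental loop 60.6 kb.

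**Figure D4:**
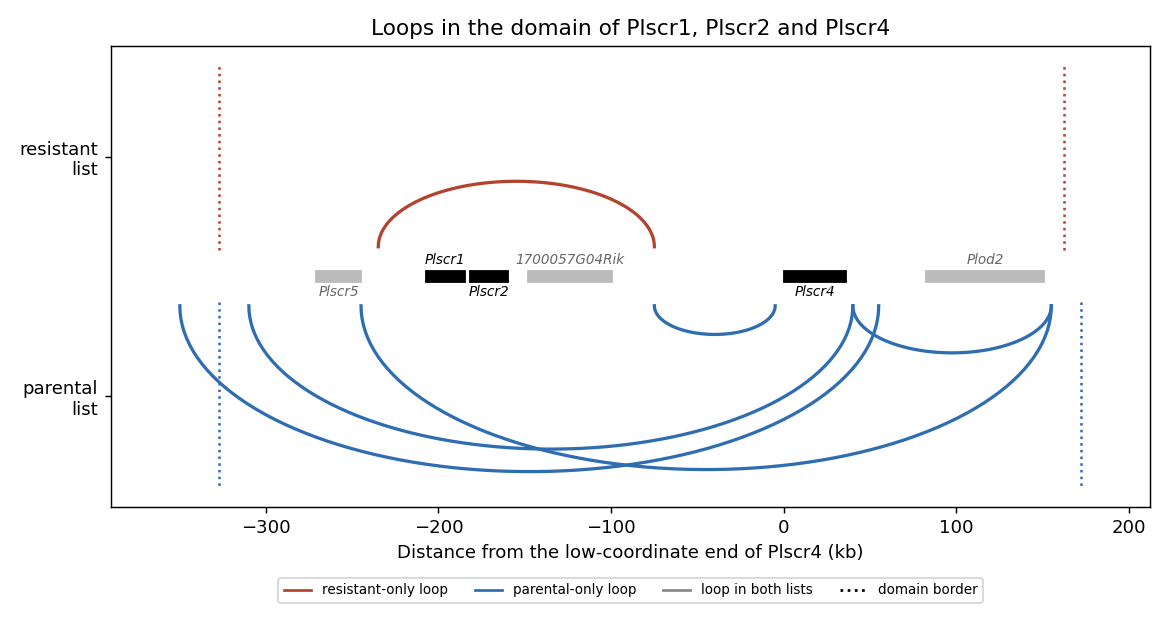
Loops (arcs) in and around the scramblase domain, in kb from the low end of Plscr4, with the resistant list above and the parental list below; dotted lines are domain borders. The parental list has 5 loops, 3 of them within 5 kb of an end of Plscr4, and the resistant list has 1 loop, of 160 kb, over Plscr1 and Plscr2.

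Both borders of the domain that held most of the gene lay within 20 kb in the other list for 7 of 10 members (60.4% of all genes), a share near that of all genes. The 3 scramblases count for 3 of the 7 although they share 1 domain, and with borders at identical positions the count was 2. The borders were identical for Atp8b1 and Atp11a, differed by 10 kb at 1 border for Atp8b4 and the 3 scramblases, and by 20 kb for Atp11b. The other 3 members were Atp8a1, Atp8a2 and Atp8b2, and in each case the resistant domain was the smaller. The resistant list held more domains, 4196 against 3997, and the share of all genes with a smaller resistant domain is not given here. Atp8b2 lay in a resistant domain of 310 kb (89770001 to 90080000) and a parental domain of 840 kb (89240001 to 90080000). The left border of the resistant domain was 310 kb from any parental border and had a score of 0.083, with 97.6% of resistant domains scoring lower. The number of protein-coding genes sharing the domain of Atp8b2 was 9 in the resistant and 30 in the parental list. Median domain size over the lists was 500 kb in resistant and 510 kb in parental cells.

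**Figure D5:**
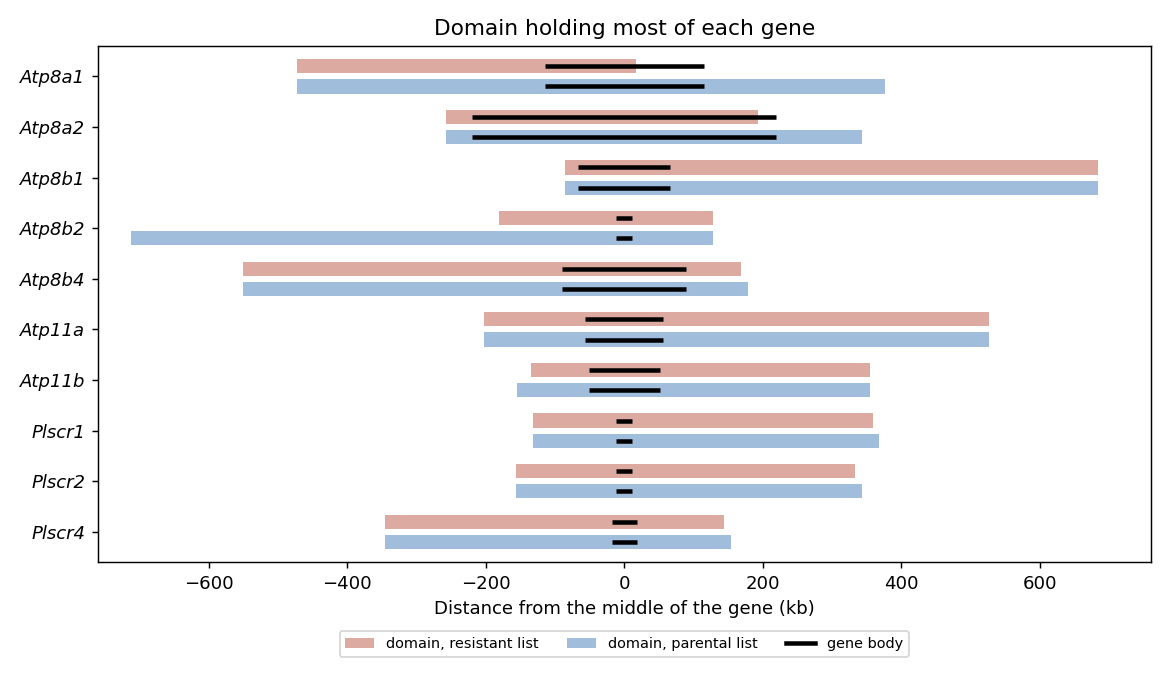
Bars show the domain that holds most of each gene in the resistant list (red, upper) and the parental list (blue, lower), in kb from the middle of the gene, with the gene body in black. The resistant domains of Atp8a1, Atp8a2 and Atp8b2 are shorter, at 490, 450 and 310 kb against 850, 600 and 840 kb, and the other 7 pairs differ by 20 kb or less.

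Other genes that move lipids between leaflets formed a wider list. It named 33 genes, of which 32 had a protein-coding entry; Atp10d is annotated as a pseudogene in this assembly. A loop within 50 kb was called at 28 of the 32 genes in the resistant list (87.5%, beside 61.5% of all genes). In the parental list it was called at 23 (71.9%, beside 60.4% of all genes). The median was 1 loop per gene in each list. The wider list mixes long genes, such as Xkr4, with short ones. Among all genes of 100 kb or longer, 71.4% had a resistant loop and 69.9% a parental loop. The difference from the 4 and 8 of 10 members was not tested. At gene ends, 6 genes had more resistant-only loops (11.8% of all genes), 4 had more parental-only loops (11.3% of all genes) and 22 had no difference. Among the 10 members the counts were 1, Atp8b1, and 2, Atp11b and Plscr4. Both borders of the domain were within 20 kb in the other list for 22 of the 32 genes (68.8%), near the 60.4% of all genes.

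At their gene ends, 2 flippases and 4 scramblases of the wider list had 1 resistant-only loop and no parental-only loop. Within 50 kb the counts differed from this for some: Atp9b had 1 resistant-only and 2 parental-only loops, Ano6 had 2 of each kind and Xkr9 had 1 of each kind. Xkr4 had 3 resistant-only loops and 1 parental-only loop, while Atp10a and Tmem41b showed 2 resistant-only loops apiece with no parental-only call. Atp9b, a flippase of the trans-Golgi network, had 2 resistant loops at 1 gene end. The first, over 120 kb to an end of Nfatc1, a calcium-regulated transcription factor, was found in both lists (p-value 5.37e-07 in the resistant and 2.33e-10 in the parental list). The other was resistant-only, with a span of 235 kb and a p-value of 1.63e-09. Ano6, the calcium-activated scramblase that exposes phosphatidylserine on platelets, had 1 resistant-only loop of 490 kb at a gene end, to the bin at ends of Arid2 and Gm38469 (p-value 0.000298). Xkr4 (p-value 0.00251) and Xkr9 (p-value 0.000105), of the family of caspase-activated scramblases, Tmem41b (p-value 0.000473), a scramblase of the endoplasmic reticulum, and Atp10a (p-value 0.00731) had 1 resistant-only loop each at a gene end.

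At their gene ends, Plscr5, Atp8b5, Atg9a and Abca4 had 1 parental-only loop and no resistant-only loop. Within 50 kb each of them also had 1 resistant-only loop, against 2 parental-only loops at Plscr5, Atp8b5 and Abca4 and 1 at Atg9a. The Plscr5 loop is the 400 kb loop to Plod2 described above for Plscr1. Atp8b5, a flippase of the testis in mice, shared a parental-only loop of 155 kb with its neighbour Unc13b (p-value 3.57e-06). Atg9a, the scramblase of autophagosome formation (p-value 0.00457), and Abca4, the lipid transporter of photoreceptors (p-value 0.00835), had weak calls. Of the partner subunits of the flippases, Tmem30a, Tmem30b and Tmem30c had no loop at a gene end in either list, like 66.1% of all genes. Within 50 kb, Tmem30a had 2 resistant-only loops and no parental loop, Tmem30b had 2 loops in each list, all shared, and Tmem30c had none.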

How the data were processed

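Hi-C of 3 resistant and 3 parental samples was analysed through the 4 deposited lists. The other 48 samples, of RNA-seq, ATAC-seq and ChIP-seq, are not analysed here. Cells were digested with DpnII, per the labels' protocols, and BWA with the builds mm10 and hg19 is named in the submitters' processing notes. Neither callers, settings nor any pooling of replicates are stated. Each deposited loop has a p-value and each deposited domain a separation score, per the file headers, and both are the authors' own values, used only to rank calls within a list. The largest deposited p-value was 0.0497. Scores were read as those of the left border, since scores of domains sharing only a left border had r = 0.964 over 987 pairs, against 0.629 over 992 pairs sharing only a right border.

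Gene positions and promoters are from RefSeq (GRCm38.p6). Coordinates count from 1. Loops matched when each anchor lay within 10 kb, borders within 20 kb. The 10 members, the wider list, windows and motifs were chosen with earlier results of these data known. All members are named; of the wider list, genes with 2 or more loops at gene ends or any difference; of other genes, those at the far anchor of a member loop. Outside this rule, the flippase subunits Tmem30a, Tmem30b and Tmem30c are named, and Atp10d, which has no protein-coding entry. Cdadc1 and the neighbours of wider-list loops were added after their loops were seen. Counting was done in Python 3.11.15 with pandas 2.3.3 and tested on simulated loops. No test between conditions was made.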

Additional observations from a re-analysis of the deposited data

How the results depend on the processing

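No paired analysis was possible because each condition has 1 list of loops and 1 list of domains, with no column for a replicate, and for the same reason no replicate could be left out. With loops matched only at identical bins, 1 member loop within 50 kb was found in both lists, against 2. With only the 3584 resistant and 3414 parental loops of lowest p-value the parental count within 50 kb was 7, against 12, and the parental-only count at gene ends was 1, against 4. In lists of equal length, each cut to its best 5121 loops, the parental-only count at gene ends was 2. These settings drop weak calls by construction, and Plscr4 then kept 1 and 2 of its 3 gene-end loops and Atp11b none, while Atp8b1 kept all 3. With anchors within 20 kb of the gene body the resistant count was 4, against 7, and 0 loops were found in both lists. With 100 kb the counts were 15 resistant and 19 parental, with 6 resistant loops found in both lists. With the gene end required inside the anchor bin the parental-only count was 1, that of Atp11b, and Plscr4 had none. With the gene start only, the counts were 0 resistant-only and 2 parental-only, and Atp8b1, Atp8a2 and Plscr2, whose strand is not in the promoter table, could not be counted. With borders matched only at identical positions, 2 members had the same domain in both lists, against 7. The other 23 recomputed family counts stayed within 1.5 times, and no member's difference changed sign. Depth limits these lists to an unknown extent.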
